A study of Mus musculus with 4 samples.

Results

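The regions described here are m6A-seq peaks that the authors annotated to exon 1 of a transcript with more than 1 exon, and are called first exon peaks below. They were found by the wording of the annotation in the 2 deposited peak lists, and a peak annotated as 5′ UTR is not among them, since that annotation is a class of its own. There were 729 first exon peaks among the 16709 peaks of the WT list (4.36%, exact binomial interval 4.06% to 4.68%) and 748 among the 21031 peaks of the KO list (3.56%, 3.31% to 3.82%), or 1477 of 37740 in all. A separate deposited table of peaks that differed between the genotypes held 127 first exon peaks among 6050, at 123 distinct loci.

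The cells were C57BL/6 mouse macrophages, obtained by culturing bone marrow cells with M-CSF (macrophage colony-stimulating factor) over 7 days. The WT cells were Mettl3 fl/fl, that is, with floxed alleles of Mettl3 and no Cre. The KO cells carried the same floxed alleles and LyzM-cre, a Cre recombinase expressed from the lysozyme 2 gene, which is active in myeloid cells and can leave cells undeleted. Each genotype had 1 library of RNA precipitated with an antibody against m6A (IP) and 1 of the RNA before precipitation (input), so each input level rests on 1 library, each value of a peak list on 2 and each differential ratio on 4. No difference has a replicate check, and no test of the genotypes was possible. The labels give no age, sex or number of mice.

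N6-methyladenosine (m6A) is written on messenger RNA and long noncoding RNA by a complex whose catalytic subunit is METTL3, mostly at adenosines within the short motif called DRACH, of which GGACT is a common form in DNA letters. In most messenger RNAs the mark is densest near stop codons and in long internal exons, and short exons flanked by splice junctions are poor in it. First exons are a separate setting: the antibodies used for m6A also bind m6Am, a related modification of the first transcribed base that another enzyme writes, and the first exon of a noncoding RNA holds no coding start.

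In these libraries, 301 of the WT first exon peaks lay in exons of protein-coding genes and 192 in exons of long noncoding RNAs, and the latter were the more strongly enriched. Among the differential peaks, 111 of 127 were lower in KO (87.4%), against 69.6% of all peaks and 88.7% of 5′ UTR peaks in the authors' deposited table. The lowest ratios were at noncoding RNAs such as 4632427E13Rik, of very low input level, and at Foxo1, Adamtsl5, Pou6f1 and Dusp2. The WT peak at the site was annotated to a 3′ UTR for Foxo1, Pou6f1 and Dusp2. The 16 higher ones included Capza1-ps1, Mllt11 and Mia3.

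Sequences were read from RefSeq promoter windows on the assembly GRCm38.p6, each running from 250 bases before to 50 bases after an annotated start. Only the parts of these windows inside a peak's exonic blocks and on the exon's strand were used, and 106 WT and 92 KO first exon peaks (14.5% and 12.3%) overlapped such a window. The 7 runs below are 30-base stretches around GGACT that lie wholly inside a first exon peak, and they show what the motif looks like where the peaks allow it to be read. Capitals mark GGACT, at bases 13 to 17 of each run, written 5′ to 3′ on the transcribed strand. The first 6 come from the WT list and the last from the KO list. Trmt61b, a symbol known for a mitochondrial tRNA methyltransferase, had the same stretch in both lists. Its exon is counted below with the long noncoding RNAs, the type matched to the symbol.
Trmt61b, chr17:71598305-71598334, minus strand: tccctttccagaGGACTcttttcagtcggg
Gm30794, chr17:87460317-87460346, minus strand: cttcctcataagGGACTgcggatggctgct
Tln1, chr4:43562584-43562613, minus strand: cgtggaatcctgGGACTtggagttctctcc
Cdc14b, chr13:64275186-64275215, minus strand: tcgaggaactggGGACTgaggcgtcaacac
Pcyt1a, chr16:32431167-32431196, plus strand: tgacagccaagaGGACTgtgacccaggggt
A130051J06Rik, chr15:95790345-95790374, minus strand: ctgacaacccaaGGACTggggcgcagatgc
D430036J16Rik, chr9:81631710-81631739, plus strand: cacaggagacccGGACTcactgggcacgtc

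The peaks around these stretches ranged widely. The Trmt61b peak had a fold enrichment, the authors' ratio of IP over input, of 4.67 in WT (p 3.2e-12) and of 2.64 in KO (p 0.00041). The peaks over Tln1, which encodes the integrin-binding protein talin, and Pcyt1a, which encodes a rate-limiting enzyme of phosphatidylcholine synthesis, had WT folds of 8.16 and 1.29 with p of 0.018 and 0.027. Most of the 7 therefore sit at weak peaks, and a match is a description of the letters and not of a methylated site.

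Over windows of one length, the share holding the motif in first exon peaks had intervals that included the share over all windows. The 50 bases after an annotated start lay wholly inside a first exon peak at 64 starts in WT, and 2 of these held GGACT (3.13%, 0.381% to 10.8%), against 1891 of all 32851 windows (5.76%). Of the 60 such starts in KO 0 held it (interval up to 5.96%). The shorter GGAC, which includes every GGACT, was present in 11 of 64 (17.2%, 8.91% to 28.7%) in WT and 8 of 60 (13.3%, 5.94% to 24.6%) in KO, against 18.9% of all windows. Only the transcribed strand was searched. The first transcribed base was A in 27 of 64 in WT (42.2%, 29.9% to 55.2%) and 23 of 60 in KO (38.3%, 26.1% to 51.8%), against 34.4% of all windows, so both intervals held the share over all windows. In 5′ UTR peaks that share was 26.5% of 833 starts in WT and 26.1% of 784 in KO.

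The starts of 3 named transcripts are shown because their first exon peaks are described further on; GGAC is in capitals where it occurs.
4632427E13Rik, chr7:92741430-92741459, minus strand: agagaagaactGGACcggccgccatgttgg
Xist, chrX:103483204-103483233, minus strand: cggcttgctccagccatgtttgctcgtttc
Gm16845, chr9:22071002-22071031, plus strand: ggcttcttctctccctccctccctctcccg

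The label of the class was checked against the peaks. A first exon peak is given by the authors as a set of exonic blocks, and 446 of 729 in WT (61.2%) and 412 of 748 in KO (55.1%) had more than 1 block, so that most of them ran past exon 1 of the named transcript or were split by an intron of another. Over all peaks those shares were 38.8% and 32.7%. They were 57.3% and 56.3% in 5′ UTR peaks and 55.6% and 55.1% in internal exon peaks, so such splitting is not particular to first exons. The median exonic length was 389 bases in WT (353 to 440) and 362 in KO (343 to 391), with a range of 58 to 5658 and 58 to 5345 bases. The exon belonged to the gene the authors assigned to the peak in 596 of 729 and 623 of 748 cases, and to another gene in 133 and 125. Where RefSeq held the assigned gene, 573 of 608 WT peaks (94.2%) and 584 of 611 KO peaks (95.6%) overlapped it.

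Peaks also lay over one another. A first exon peak shared at least 1 exonic base with another peak of its own list in 227 of 729 cases in WT (31.1%) and 222 of 748 in KO (29.7%), against 14.0% and 12.5% of all peaks. The other peak was annotated to a 3′ UTR for 117 in WT and 126 in KO, to another first exon for 47 and 44, and to a 5′ UTR for 46 and 40. For these peaks the annotation alone does not tell which transcript was precipitated, and the strand listed is that of the assigned gene rather than of the peak itself.

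Coordinates were at hand only for transcripts that the authors had assigned to some peak, which left 519 of 729 WT and 528 of 748 KO peaks. What this selection adds to the shares below was not tested. A peak is said here to reach the start where its outer span, introns included, begins at or before it. Whether an exonic block covers the start was not checked for peaks that begin before it. Some of these begin far upstream, such as the WT peak of Ski at -33967 bases. Of the peaks whose transcript had coordinates in the files, 304 of 519 in WT reached its start (58.6%, 54.2% to 62.9%), with 223 beginning exactly at it and 81 before it. In KO these were 286 of 528 (54.2%, 49.8% to 58.5%), with 216 at the start and 70 before it. The other 215 WT and 242 KO peaks began inside the transcript, at a median of 211 and 265.5 bases. The plot of peak starts shows the same single high bin in both lists.

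**Figure D1:**
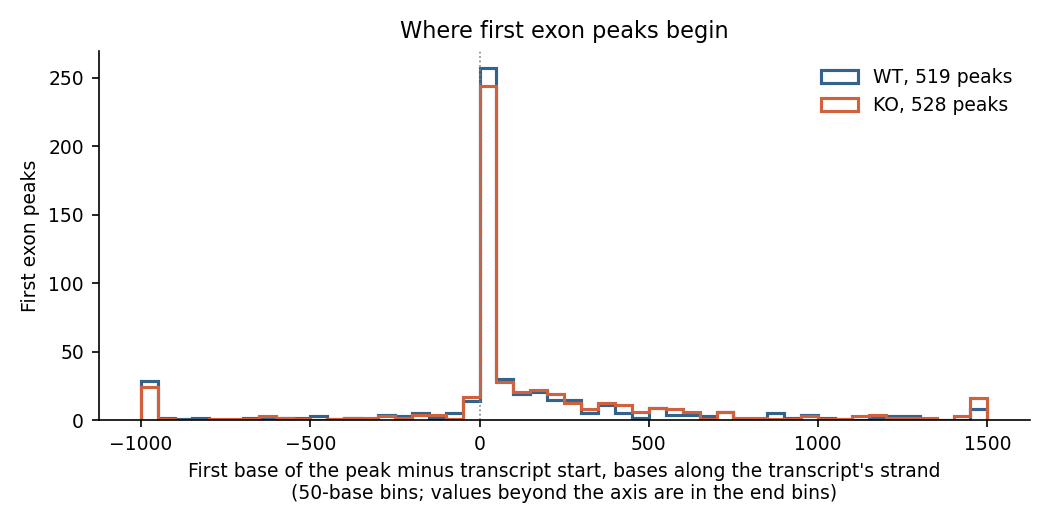
Number of first exon peaks (vertical axis) by the distance in bases along the genome, introns included, from the transcript start to the first base of the peak (horizontal axis, 50-base bins, end bins holding what lies beyond), for 519 WT peaks (blue) and 528 KO peaks (orange). The highest bin in both lists is the one at the start, with a tail of peaks beginning inside the transcript.

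Reaching the start went with the kind of gene. The exon's gene was protein coding by RefSeq for 301 WT and 341 KO peaks, a long noncoding RNA for 192 and 182, a pseudogene for 42 and 26, of another kind for 3 and 2, and was not matched for 191 and 197. Among protein-coding genes with coordinates, 58 of 197 WT peaks reached the start (29.4%, 23.2% to 36.3%) and 54 of 220 KO peaks (24.5%, 19.0% to 30.8%). Among long noncoding RNAs, 117 of 161 (72.7%, 65.1% to 79.4%) and 106 of 152 (69.7%, 61.8% to 76.9%) did, and the intervals do not overlap those of the coding genes. Coordinates were at hand less often for coding genes, with 197 of 301 in WT and 220 of 341 in KO, than for long noncoding RNAs, with 161 of 192 and 152 of 182. Peaks on long noncoding RNAs were also longer, with a median of 536 exonic bases in WT and 444 in KO against 241 and 270 on coding genes. The part of length and of this selection in reaching the start was not tested.

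The fold enrichment of first exon peaks had a median of 4.97 in WT (order-statistic interval 4.42 to 5.61), with a range of 1.10 to 283, beside 3.74 for the whole WT list. In KO the median was 4.72 (4.25 to 5.31), with a range of 1.12 to 263, beside 3.15 for the whole KO list. Each list has its own scale, so folds are compared within a list. Fewer of these peaks passed the authors' false discovery rate of 0.05 than in the list as a whole: 439 of 729 in WT (60.2%) against 70.2%, and 372 of 748 in KO (49.7%) against 64.9%. The other exon classes had like shares, so this is not particular to first exons. Internal, last and single exon peaks had 60.6%, 56.2% and 60% in WT and 52.9%, 47.9% and 49.8% in KO. With the first exon peaks of each list in 5 equal classes by fold, the second highest class, of median fold 8.16 in WT and 7.08 in KO, had 34.2% and 19.5% past the rate, while the highest had 100% and 77.3%. That class holds values that recur exactly. In WT, 66 first exon peaks had a fold of exactly 7.14 and 39 of exactly 8.16, and in KO 74 had 7.08 and 59 had 8.27. Those values made up 9.05%, 5.35%, 9.89% and 7.89% of the first exon peaks, against 4.36%, 3.17%, 5.24% and 3.71% of the lists.

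By kind of gene, first exon peaks on long noncoding RNAs had a median fold of 7.14 in WT (6.12 to 8.16) and 7.08 in KO (5.90 to 7.28). On protein-coding genes it was 2.55 in WT (2.27 to 3.04) and 2.97 in KO (2.81 to 3.54). Exons of genes not matched in RefSeq were nearer the noncoding ones, at 6.74 and 5.93. Peaks of 1 block had a lower median, 3.06 in WT and 3.25 in KO, than peaks of several blocks, 6.63 and 5.90. The number of exons moved the same way: the 281 WT peaks on transcripts of 2 exons had a median of 7.14, and the 85 on transcripts of 10 or more had 2.45, with 5.90 for 281 and 2.68 for 95 in KO. Just outside the rule, the single-exon transcripts had 799 peaks with a median of 6.12 in WT and 899 with 5.90 in KO.

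**Figure D2:**
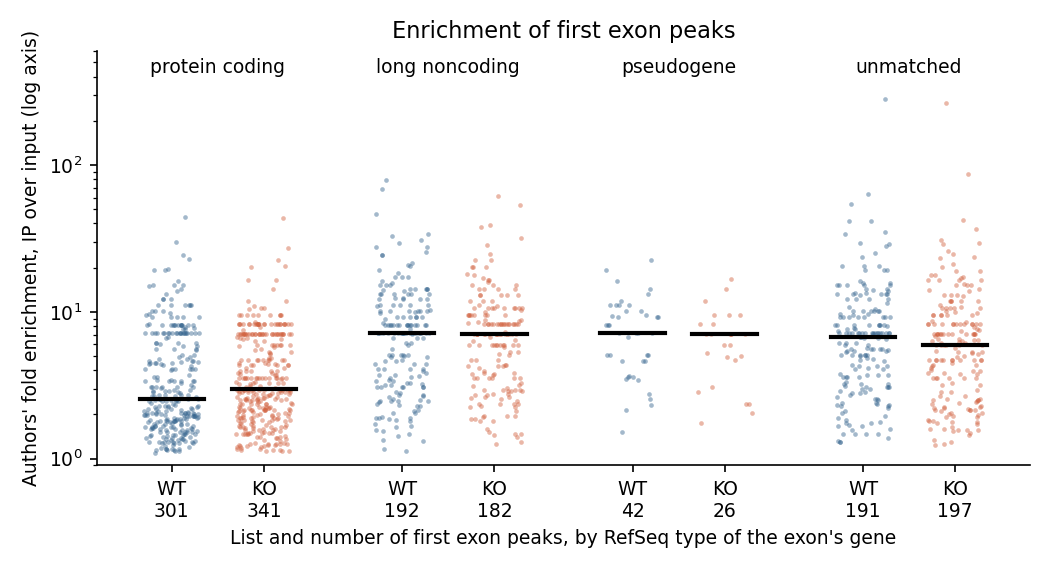
The authors' fold enrichment of IP over input (log axis) of each first exon peak, by list and by the RefSeq type of the exon's gene, with bars at the medians; the 3 WT and 2 KO peaks of other types are not drawn. Peaks on long noncoding RNAs centre at 7.14 and 7.08, peaks on protein-coding genes at 2.55 and 2.97, and rows of points at one height are the repeated fold values.

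None of the strongest first exon peaks by the authors' p was in an exon that RefSeq gives to a protein-coding gene. The 10 WT genes with the smallest p were 2610507I01Rik, Ddhd2, Gm11175, Xist, Zfp36l2, Gm44123, Gm20457, 4930430E12Rik, AU022793 and Slc33a1, of which 5 peaks lay in exons of long noncoding RNAs and 5 in unmatched ones. The peak of 2610507I01Rik, a long noncoding RNA of 2 exons at chr11:59199836-59202385, began at the transcript start and had a fold of 68.8 in WT and 61.5 in KO. Xist, the noncoding RNA that coats the inactive X chromosome, had a long peak over the 5′ end of its first exon, with a fold of 12.5 in WT at chrX:103481726-103483254 and of 11.0 in KO, where it began 30 bases after the start of the transcript in the files, which lies upstream of the RefSeq start printed above. Xist had a second, weaker first exon peak in each list, of fold 1.33 in WT and 4.33 in KO, that shared no base with the other list. Peaks in Xist exons but assigned to Gm27927 had folds of 2.5 and 1.13 in WT and 1.87 in KO. AU022793 had 14.4 in WT and 18.0 in KO, and Gm20457 had 28.1 and 17.3.

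In several of these the assigned gene was not the gene of the exon. The peak assigned to Zfp36l2, which encodes a protein that binds AU-rich messenger RNAs and promotes their decay, was annotated to exon 1 of Gm36279, a long noncoding RNA, and had a fold of 7.10 in WT and 5.78 in KO. The WT peak assigned to Ddhd2, at chr8:25754480-25768930 with a fold of 46.5, lay in exon 1 of Gm17484 and outside the RefSeq extent of Ddhd2. The peak assigned to Slc33a1, which encodes an acetyl-coenzyme A transporter, was in an exon of a gene the files do not name, at 13.4 in WT and 14.0 in KO. The highest fold in both lists, named after its value was seen, was 283 in WT and 263 in KO at a peak assigned to Capns1, again in an exon of a gene without a name in the files.

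First exon peaks spread over many genes. They were assigned to 678 genes in WT and 705 in KO, with 313 genes in both, which is 46.2% of the WT and 44.4% of the KO genes. The same share over all genes with a peak was not computed, and these shares are no measure of how far the genotypes differ. A gene also leaves the count where its peak in the other list is annotated to another class. Most genes had 1 first exon peak, and the genes with the most over both lists were 4632427E13Rik (2 in WT and 4 in KO), 5031425E22Rik, 9930014A18Rik and Smg8 (3 in each list), and A730063M14Rik (2 in each). The last is level at 4 with 7 others, among them Gm11175, Lockd and Bicra, and stands first by name alone. Of the 5, Smg8, which encodes a regulator of the SMG1 kinase in nonsense-mediated decay, is the protein-coding one. Its WT peaks ran from 30 to 1043 bases after the start, with folds of 1.54, 2.93 and 4.40, the highest being the one farthest in. Its KO peaks had folds of 1.63, 1.62 and 2.79.

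Between the genotypes, 461 of 729 WT first exon peaks overlapped a peak of the KO list by 1 or more exonic bases (63.2%, 59.6% to 66.8%), against 73.4% of the WT list. Of the KO first exon peaks 450 of 748 did (60.2%, 56.6% to 63.7%), against 61.6% of the KO list. Sharing by the WT list was 70.4% in 5′ UTR peaks, 57.4% in internal exons, 59.6% in last exons and 60.3% in single exons. The largest-overlap peak was itself a first exon peak for 313 of the 461 in WT (67.9%) and 309 of the 450 in KO (68.7%).

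How strong a peak was went with whether it was shared, and at like strength first exon peaks were shared about as often as others. Each list was split into 5 classes of equal size by the authors' p. In WT, 81 first exon peaks fell in the class of smallest p and 202 in that of largest p, and their shares were 100% (95.6% to 100%) and 34.7% (28.1% to 41.7%), against 99.6% and 41.4% of the whole list. The middle class was the one where the WT interval lay below the list's share, with 66.7% (58.6% to 74.1%) against 76.5%. In KO the shares ran from 99.0% of 97 to 30.6% of 222, against 95.9% and 30.3%. Here the middle class lay above the list's, at 74.4% (66.2% to 81.6%) against 60.3%. First exon peaks were thus weighted to weak classes, with 27.7% in the weakest class of the WT list and 29.7% in that of the KO list.

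**Figure D3:**
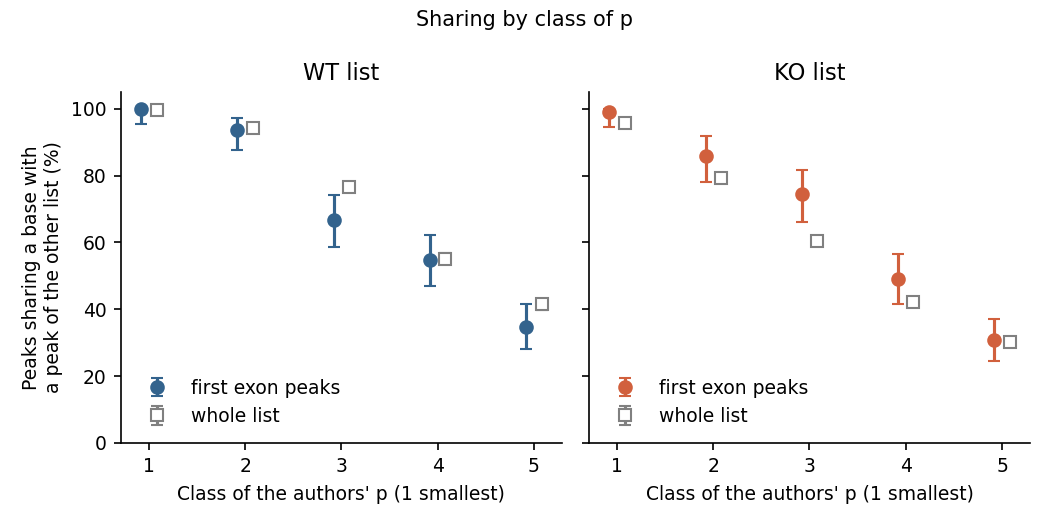
Share of peaks with at least 1 exonic base in a peak of the other list (vertical axis, %) in 5 classes of the authors' p, from smallest (1) to largest (5), for first exon peaks (filled circles) and the whole list (open squares), with 95% exact binomial intervals. Both fall from close to 100% in class 1 to between 30.3% and 41.4% in class 5.

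Sharing differed by kind of gene. First exon peaks on long noncoding RNAs were shared in 69.3% of cases in WT (62.2% to 75.7%) and 70.9% in KO (63.7% to 77.4%), and those on protein-coding genes in 53.5% (47.7% to 59.2%) and 46.9% (41.5% to 52.4%). The coding ones were also the weaker, with 49.8% past the false discovery rate in WT against 64.1% of the noncoding, and 39.3% against 53.3% in KO. The part of that difference in the sharing was not tested.

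The first exon peaks in WT only with the smallest p were assigned to Cd72, Gm13391, Fam207a, Gm42031 and Adamtsl5. Cd72, which encodes a C-type lectin-like receptor of B cells and macrophages, had a fold of 1.38 over 239 bases (p 2e-10). Gm13391 had 3.06, Gm42031 11.2 and Adamtsl5 10.2 at chr10:80339110-80340085, whose span overlaps that of a second Adamtsl5 first exon peak of fold 7.14 that did share bases with a KO peak. Those in KO only were assigned to Capza1-ps1, Ubb-ps, Gm44170, Gm6937 and Rpl30. Capza1-ps1 had a fold of 6.36 (p 2e-66), and Rpl30, a protein of the large ribosomal subunit, had 1.93. Of these 5 at least Capza1-ps1 and Ubb-ps are pseudogenes by name, and their values are uncertain where reads were divided between a copy and its parent gene; no source used here states how such reads were counted.

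The differential table gives a log2 ratio of enrichment in KO over WT for each peak with a p under 0.05. In the authors' deposited table, 111 of the 127 first exon peaks were lower in KO (87.4%, 80.4% to 92.6%), against 69.6% of the whole table. The median log2 ratio of the 127 in the authors' deposited table was -0.52 (-0.67 to -0.43), with -0.62 over the lower and 0.97 over the higher peaks and a range of -3.45 to 4.10. A false discovery rate under 0.05 was given by the authors' deposited table to 91 of the 127 (71.7%), of which 80 were lower, against 79.6% of the whole table. The median of the whole authors' deposited table was itself -0.40, and 81 of the 127 first exon peaks (63.8%, 54.8% to 72.1%) lay below it.

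Other classes near the 5′ end or inside the transcript had a like share. In the authors' deposited table the share lower in KO was 88.7% in 5′ UTR peaks (85.8% to 91.1%), and it was 91.1% in internal exon peaks (88.4% to 93.3%). Last exons followed with 79.9% (74.0% to 85.0%) and single exons with 68.7% (60.6% to 76.0%) of the authors' deposited table. The 4382 peaks in 3′ UTRs, which make up most of the authors' deposited table, were lower in 63.2% (61.8% to 64.6%). First exon peaks were thus apart from 3′ UTR and single-exon peaks by intervals that do not overlap, and not from 5′ UTR, internal exon or last exon peaks.

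**Figure D4:**
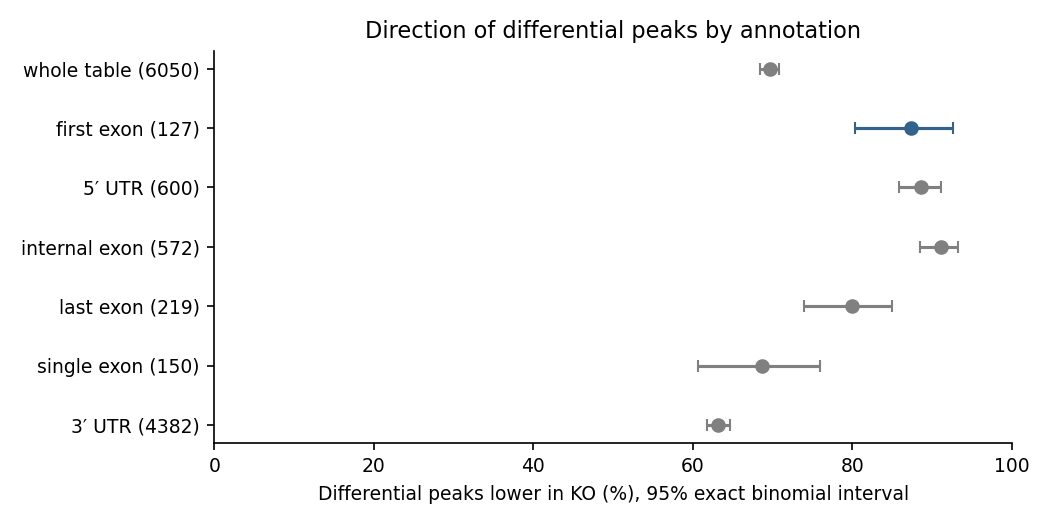
Share of differential peaks that were lower in KO (horizontal axis, %) by annotation, with the number of peaks in brackets and 95% exact binomial intervals, from the authors' deposited table. First exon peaks (blue) sit at 87.4%, beside 5′ UTR (88.7%) and internal exons (91.1%), and above 3′ UTR (63.2%).

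The direction was set beside peak strength and gene level, which move with it in the whole table. By the peak p in the authors' deposited table, cut into 5 classes over all its peaks, first exon peaks were lower in 22 of 22, 25 of 28, 24 of 26, 21 of 24 and 19 of 27 from the strongest to the weakest class. The same classes of the whole authors' deposited table had 96.4%, 87.5%, 70.3%, 52.2% and 41.6%. First exon peaks were therefore lower more often than the table in its 3 weaker classes, where the intervals of 74.9% to 99.1%, 67.6% to 97.3% and 49.8% to 86.3% lie above those shares. By input level in the authors' deposited table, from the lowest to the highest class, 41 of 51, 29 of 30, 17 of 18, 11 of 14 and 11 of 12 were lower, beside 71.7%, 84.2%, 77.8%, 70.5% and 44.3% of all peaks. The lowest class held 51 of the first exon peaks and the highest 12.

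By kind of gene, the authors' deposited table had 30 of 31 first exon peaks on long noncoding RNAs lower (96.8%, 83.3% to 99.9%) and 46 of 54 on protein-coding genes (85.2%, 72.9% to 93.4%). All 4 pseudogene peaks and 30 of 37 unmatched ones were lower in the authors' deposited table. The medians there were -0.75 (-0.99 to -0.41) for long noncoding RNAs and -0.53 (-0.63 to -0.41) for coding genes, with intervals that overlap. Transcripts of 2 exons had 38 of 48 lower and transcripts of 3 or more 73 of 79 in the authors' deposited table.

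**Figure D5:**
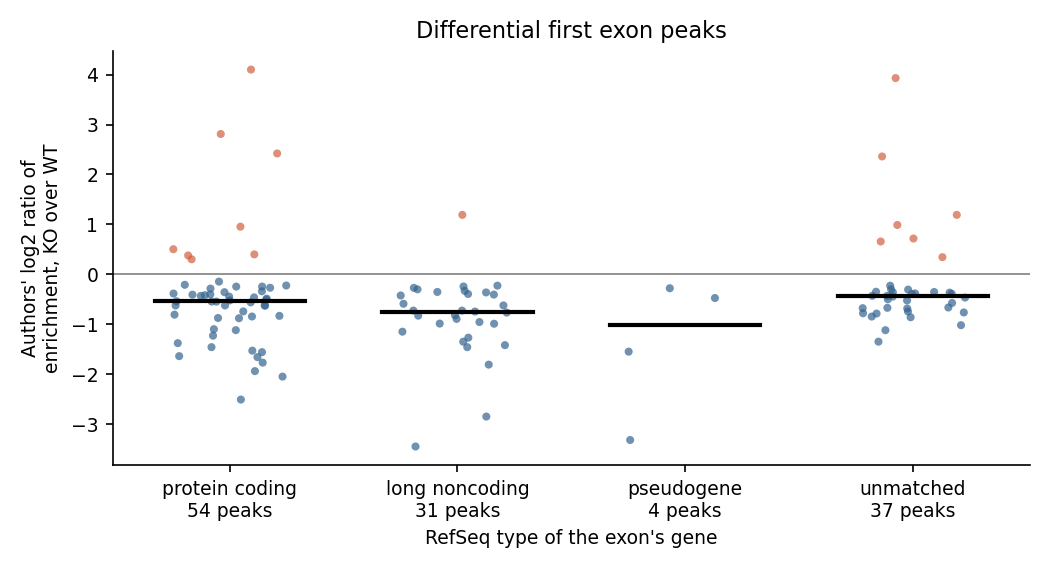
Log2 ratio of enrichment in KO over WT from the authors' deposited table (vertical axis) of each differential first exon peak, by RefSeq type of the exon's gene, with bars at the medians; blue points are lower and orange points higher in KO, and 1 peak of another type is not drawn. Of 31 peaks on long noncoding RNAs 1 is above 0, and of 54 on protein-coding genes 8 are.

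Most of the lower peaks were still called in KO. Of the 111, 97 overlapped a peak of the KO list (87.4%, against 92.7% over the whole table), and of the 16 higher ones 10 overlapped a WT peak (62.5%, against 64.7% over the whole table). The peak of largest overlap was annotated as first exon for 86 of the 127 in each list. It was a 3′ UTR peak for 19 in WT and 13 in KO, and 6 and 14 had none.

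The lowest ratio of all was at 4632427E13Rik, a long noncoding RNA of 2 exons whose start is shown above, with a log2 ratio of -3.45 in the authors' deposited table (false discovery rate 0.0024). The peak of largest overlap had a fold of 32.7 in the WT list and 8.86 in the KO list. Its input level was 0.0482 FPKM (fragments scaled by the length of the transcript and the size of the library) in WT and 0.105 in KO, both far under the 1 FPKM asked of the genes below. A second row of the authors' deposited table over the same locus had -2.85 and is not independent of the first.

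Among 71 genes with a name of their own and an input of 1 FPKM or more in each genotype, the 10 lowest ratios ran from -2.51 to -1.46. Foxo1, which encodes a forkhead transcription factor restrained by insulin and growth factor signalling, had the lowest, -2.51, in the authors' deposited table, with a false discovery rate of 0.0513. Its region of 91 bases at chr3:52269145-52269235 overlapped a WT peak of fold 14.3 that the WT list annotates to a 3′ UTR, and no KO peak. The Foxo1 input was 1.94 FPKM in WT and 2.06 in KO. Foxo1 is therefore a first exon peak by the differential annotation and not by the WT list's.

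Adamtsl5, which encodes a secreted protein of the extracellular matrix, had -2.05 at chr10:80339823-80340122 in the authors' deposited table (false discovery rate 0.005) and -1.77 at an overlapping region. Its input was 3.38 FPKM in WT and 2.10 in KO, the largest difference among the 10 genes. Pou6f1, a POU-domain transcription factor, had -1.94 in the authors' deposited table (false discovery rate 0.0589), with a WT fold of 11.5 at a peak annotated to a 3′ UTR, and no KO peak. Its input was 1.77 FPKM in WT and 1.95 in KO.

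Dusp2, a nuclear phosphatase that inactivates MAP kinases, had 2 regions in the authors' deposited table, at -1.64 (false discovery rate 0.0759) and -1.12 (0.00398). The first was at chr2:127336249-127336398. The regions overlapped 1 WT peak of fold 10.7, annotated to a 3′ UTR, and KO peaks of 2.00 and 3.74. Its input was 2.66 FPKM in WT and 2.40 in KO. Rpusd2, of a family of pseudouridine synthases, had -1.66 in the authors' deposited table (false discovery rate 0.0794), with a WT fold of 6.38 and a KO fold of 3.84. Both genes kept a KO peak at the site.

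The other 5 of the 10 were Ndufaf4, Ifi203-ps, Recql, Bnip1 and a peak assigned to Urgcp. Ndufaf4, an assembly factor of mitochondrial complex I, had -1.56 in the authors' deposited table (false discovery rate 0.0105), while its input was 1.90 FPKM in WT and 2.59 in KO. Ifi203-ps, a pseudogene of the interferon-inducible p200 family, had -1.55 in the authors' deposited table (0.00138), with a first exon peak in both lists, of fold 9.57 in WT and 3.09 in KO. Recql, a DNA helicase, had -1.53 in the authors' deposited table (0.0331), and Bnip1, a SNARE protein of the endoplasmic reticulum, had -1.46 (0.0174). The Urgcp region lay in exon 1 of Ube2d-ps and had -1.46 in the authors' deposited table (false discovery rate 2.089e-05), with a WT first exon peak of fold 8.42 and no KO peak. The WT peak at the site was a first exon peak for 3 of the 10 genes, Adamtsl5, Ifi203-ps and the Urgcp region. It was annotated to a 3′ UTR at Foxo1, Pou6f1, Dusp2 and Ndufaf4, to a 5′ UTR at Rpusd2 and Bnip1, and to an internal exon at Recql. For 6 of the 10 genes the rate at the lowest ratio was under 0.05, and all 10 had an input under 6 FPKM in both genotypes.

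The higher side was thin. By the authors' deposited table, 85 differential first exon peaks were in genes of 1 FPKM or more in each genotype, with 78 lower and 7 higher, and the other 9 of the 16 higher ones came from genes under 1 FPKM in both. Mllt11 had 2.81 in the authors' deposited table (false discovery rate 0.0741), at chr3:95230049-95230421, outside the RefSeq extent of that gene and at a KO peak of fold 17.7 annotated to a 5′ UTR. Capza1-ps1, a pseudogene of an actin-capping subunit, had 2.36 in the authors' deposited table (false discovery rate 2.512e-39) at chr1:105455971-105456209. Its input was 16.7 FPKM in WT and 5.90 in KO, a log2(FPKM + 1) difference of -1.36, and its KO fold of 6.36 has no WT peak beside it. The lower input and the higher ratio of this pseudogene moved together, and the part of one in the other was not tested.

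A peak assigned to Zfp653 in exon 1 of the long noncoding Gm16845, whose start is shown above, had 1.19 in the authors' deposited table (false discovery rate 0.109). Pigq, of the synthesis of glycosylphosphatidylinositol anchors, had 0.99 in the authors' deposited table (0.0234) with a fold of 1.76 in WT and 14.2 in KO, in an exon of a gene the files do not name. Mia3, an export receptor for collagen at the endoplasmic reticulum, had 0.95 in the authors' deposited table (0.0457), although its first exon folds were 3.40 in WT and 3.13 in KO. Ndufs5, a subunit of mitochondrial complex I, had 0.38 in the authors' deposited table (0.0055), at a KO peak annotated to a 3′ UTR, and its input was 32.8 FPKM in WT and 26.8 in KO. Cactin, a splicing-associated protein, had 0.30 in the authors' deposited table (0.11). With no more genes on the higher side, the next by ratio were Abr at -0.15, Bptf at -0.21 and Scaf11 at -0.23 in the authors' deposited table. Abr and Scaf11 had first exon peaks in both genotypes, and Bptf had one in KO and a 5′ UTR peak at the site in WT.

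Of the 10 genes with the strongest WT peaks, most appear on the lower side. They were chosen by their p in WT, and strong peaks were mostly lower whatever their annotation. In the strongest class of peak p, 1167 of 1210 peaks of the whole authors' deposited table were lower, and 22 of 22 first exon peaks. The direction is therefore not particular to these genes. The log2 ratio in the authors' deposited table was -0.43 at 2610507I01Rik, -0.40 at Zfp36l2, -0.35 at Xist, -0.33 at AU022793, -0.31 at 4930430E12Rik and -0.23 at Gm44123, and -0.77 at Gm20457. It was -0.43 and -0.35 at 2 overlapping regions of Gm11175 and -0.73 at Gm17484, whose exon holds the WT peak assigned to Ddhd2 (false discovery rate 2.884e-05) in the authors' deposited table. The false discovery rates of the first 7 in the authors' deposited table lay between 1e-11 (Xist) and 0.0141 (2610507I01Rik). At both Gm11175 regions the peak of largest overlap was a 3′ UTR peak in each list, of fold 11.5 in WT and 8.11 in KO. The Gm11175 input was 0.82 FPKM in WT and 1.955 in KO, so those ratios cannot be credited to Gm11175 alone. At Xist the peak of largest overlap was a 3′ UTR peak in WT and a first exon peak in KO. Smg8 had -0.85 and -0.81 at 2 of its regions in the authors' deposited table. Beside the median of -0.52 over all 127, Gm20457, Gm17484 and Smg8 lay further from 0 and the others named here nearer to it.

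The 300 genes of 9 pathway lists held few first exon peaks. Of the 234 with any peak in WT, 13 had one (5.56%), and of the 254 with any peak in KO 19 did (7.48%), beside 6.87% and 6.04% of all genes with a peak. Among 26 immediate early and AP-1 factors, Jun had one in both lists, at folds of 3.72 in WT and 6.30 in KO, in an exon of a gene the files do not name, and Btg2, an antiproliferative factor, had one in WT at 1.98. Of 30 genes of Toll-like receptor signalling, Tab2, an adaptor of the TAK1 kinase, had weak peaks of 1.39 in WT and 3.94 in KO that shared no base, and Irak2 had one in KO at 7.08. Of 29 negative regulators of inflammation, Zfp36l2 was in both lists and Dusp6 (2.97) and Dusp2 (2.00, not past that rate) in KO. All 3 differential first exon peaks of that list, 2 of them at Dusp2, were lower in the authors' deposited table, as were both of the growth factor list and both of the chromatin list, beside 87.4% of all first exon peaks.

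In the list of 57 chromatin modifiers, 4 genes had a first exon peak in WT and 6 in KO. Arid1b, a subunit of the BAF remodelling complex, had one in both, at 2.83 and 3.94, as did an exon of Setd2, a histone H3 methyltransferase, at 1.60 and 1.57. Kmt2c, another histone H3 methyltransferase, had 2.24 in WT, and Bptf, a subunit of the NURF remodeller, had 3.54 in KO. Of 25 writers, erasers and readers of m6A, only Ythdf2, a reader that promotes decay of methylated RNA, had one, in WT with a fold of 13.3 over 240 bases (p 0.00081). Of 23 growth factor and insulin adaptors, a peak assigned to Gab1 had 5.44 in WT, in an exon of a gene the files do not name. Irs1 and Shc1 had peaks in KO at 8.27 and 7.08, folds that recur exactly in the KO list. At Irs2, an adaptor of the insulin receptor, the WT peak of 2.81 lay in an exon of the neighbouring 9530052E02Rik and the KO peak of 5.27 in an Irs2 exon. Ubiquitin ligases held 2 genes in WT and 3 in KO of 39, with Trim25 in both at 1.16 and 1.21. None of the 34 macrophage surface and scavenger receptors had a first exon peak, of 25 with any peak in WT and 27 in KO; at shares as low as those over all genes (6.87% and 6.04%), a count of 0 is no result about the list.

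The input level of the genes behind the differential first exon peaks was compared as the KO minus WT difference of log2(FPKM + 1), which understates differences of low genes. The 83 genes whose mean reached 1 FPKM had a median of 0.10 (0.05 to 0.14), beside 0.07 over all 3679 listed genes, and 62 of the 83 were above 0, beside 2540 of the 3679. A difference of 0.5 or more was reached by 3 of the 83, against 1.79% of all, and one of -0.5 or less by 2, against 1.11% of all. The authors' smallest q-value for an input difference among these genes was 1. The largest increases among genes of at least 5 FPKM were in Lgals3bp, a secreted ligand of galectin-3, from 110.2 FPKM in WT to 173.4 in KO, and in Mrpl54, of the mitochondrial ribosome, from 21.5 to 29.3. Maf, a transcription factor of macrophages, followed with 29.3 and 38.9, Vcpip1, a deubiquitinase, with 8.47 and 11.3, and Rab20, a GTPase of phagosomes, with 14.0 and 18.6. All 5 had a ratio below 0 by the authors' deposited table, at -0.39, -0.45, -0.39, -0.86 and -0.59. The peaks assigned to Maf, Vcpip1 and Rab20 lie in exons of other genes, so that level and ratio belong to different genes there, as they do at Rsph3a. The largest decreases after Capza1-ps1 were in Rsph3a, from 6.19 to 4.77, Ndufs5, Gm42031, from 39.5 to 32.8, and Oip5os1, a conserved noncoding RNA, from 13.9 to 12.2.

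The identity of the cells was read from the same tables. Of 10 macrophage markers 6 had a peak in WT and 8 in KO, and 7 had a listed input level. Mertk and Itgam had neither a peak nor a listed level. Levels were listed only for genes of differential peaks, so a missing level does not tell whether a gene was expressed. Lyz2, Cd68 and Adgre1 had input levels of 10533, 1029 and 246.7 FPKM in WT and 6615, 993.7 and 269.3 in KO. Lyz2 is the gene the Cre of the KO cells is expressed from, so its difference cannot be told apart from the construct. Of 28 markers of other cell types 9 had a peak in WT and 12 in KO, and 3 had a listed input level. The neutrophil genes S100a9 and S100a8 were at 155.3 and 77.7 FPKM in WT and 90.2 and 46.4 in KO, and their part in the results was not tested. None of the 38 markers had a first exon peak. Over all genes with a peak only 6.87% in WT and 6.04% in KO had one, so this count is no result about the markers. In bulk RNA, fewer cells of a type and less RNA per cell cannot be told apart. The differential table used here holds no row for Mettl3, so its deletion was not checked at the level of its RNA. No file used here gives a read total, so the depth is unknown, and binomial intervals cover counting error over peaks only.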

How the data were processed

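Sample titles gave the groups. Build mm10 and the tools edgeR, StringTie, ChIPseeker, HOMER, HISAT2 and fastp are named in the submitters' processing notes, without the step each served. Per the file headers, the authors deposited for each peak a fold enrichment, IP over input as a ratio, with a p-value of at most 0.05, with log10 p and false discovery rate as scores. The differential table has, per the file headers, a log2 ratio of enrichment between KO and WT, its p-value and the deposited input levels in FPKM. Each peak list comes from 1 IP and 1 input library. List starts count from 0 and are printed from 1.

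Overlap used exonic blocks, at least 1 base and no strand (bedtools 2.31.1). Shares have exact Clopper-Pearson and medians order-statistic intervals, both 95%. Gene types came from RefSeq by symbol, so a type can differ from that of the transcript in the annotation. The procedures were tested on simulated data. Input differences used a pseudocount of 1 and a mean of at least 1 FPKM. Python 3.11.15, pandas 2.3.3 and scipy 1.17.1 were used.

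The members, the lists and the rules were chosen with earlier results of these data known. Named genes were the 10 WT genes of smallest p; the 10 lowest and 10 highest differential ratios in genes of 1 FPKM or more in each input, leaving out predicted names; the 5 strongest in each list only; the 5 genes with most first exon peaks; up to 4 per pathway list; and the 5 largest input differences each way from 5 FPKM. Other genes were named after their values were seen. The result of 1 pathway list is not reported here. Alternatives concerned thresholds of fold, p, rate and ratio, overlap, exon number, pseudocount, filter and centring.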

Additional observations from a re-analysis of the deposited data

How the results depend on the processing

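The number of first exon peaks was 729 in WT and 748 in KO. With a fold of at least 4 it was 415 and 409, with a p of 1e-10 or lower 154 and 118, on transcripts of 3 or more exons 448 and 467, and, chosen after seeing the data, with peaks of 1 block 283 and 336. The share found in the other list was 63.2% in WT and 60.2% in KO. It was 42.0% and 40.8% with overlap of 50% of both peaks, 47.0% and 45.7% when only first exon peaks of the other list counted, 77.9% and 92.4% with a p of 1e-10 or lower in both lists, and 51.6% and 48.8% in peaks of 1 block; with a fold of at least 4 in both lists it was 57.3% in WT. The median fold was 7.75 in WT and 6.32 in KO with a p of 1e-10 or lower, 3.06 and 3.25 in peaks of 1 block, and 4.08 in WT on 3 or more exons. The share of differential peaks lower in KO was 78.8% with a log2 ratio of at least 1 in absolute value and 63.8% below the table's median, a shift of -0.40. The median input difference was 0.0243 (-0.01734 to 0.07123) after subtracting that of all listed genes, an interval that holds 0.

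The share of differential peaks lower in KO stayed above 50% under the alternatives run. The median input difference stayed above 0 as a value, but its interval held 0 once the median of all listed genes was subtracted. The order of WT and KO did turn for the counts (fold of at least 4, and p of 1e-10 or lower), the shared shares (the same alternatives) and the median folds (1 block, and 3 or more exons, with 4.33 in KO), with 59.4% of KO peaks shared at a fold of at least 4. Of the alternatives, 10 of 29 planned and 5 of 11 added ones kept the value inside its interval, or the count close to the one reported. No paired analysis was possible because each genotype has 1 IP and 1 input library. With 1 library per group no library was left out. Depth is unknown here, which limits weak peaks and low genes most.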
